A study of Homo sapiens with 12 samples.

Results

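HLTF, SHPRH, ZRANB3, SMARCAL1 and CHD7 are 5 human genes of the SNF2 family, whose proteins use ATP to move along DNA. HLTF, also called SMARCA3, is the gene that the study knocked out. H3K9me3, trimethylation of lysine 9 on histone H3, was profiled by ChIP-seq in 2 groups of 293T cells: cells with a SMARCA3 knockout (KO) and wild-type (WT) cells. Each genotype had 3 ChIP and 3 input libraries, and all came from the same line, which derives from human embryonic kidney and carries the SV40 large T antigen. How the knockout was made, and whether the KO cells were 1 clone, is not stated in the labels. The members were taken as every peak that the authors named for 1 of the 5 genes, with the nearest peaks on either side where a gene had none. This gave 23 of 65170 KO peaks and 17 of 46898 WT peaks. HLTF had no peak in either list, so its 2 nearest peaks in each list were described.

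The data are 1 peak list per genotype, with a fold enrichment and a q-value per peak that are the authors' own. No value belongs to a single library, so depth and replicate spread are unknown, and no difference below has a test between genotypes. Over the whole series the KO list held 1.39 times as many peaks and 1.59 times as many covered bases as the WT list. Over the peaks named for protein-coding genes the ratio of bases was 1.49. A difference at 1 gene has to be read beside these ratios. The lists also differed in how a like fold was scored: at CHD7 a KO peak of fold 4.28 had a q-value of 4.43e-11 and a WT peak of fold 4.24 had 5.47e-08. Peaks measure a chromatin mark and not expression, so they do not check the loss of HLTF.

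HLTF and SHPRH are the human relatives of yeast Rad5. Both join a RING domain, typical of ubiquitin ligases, to the SNF2 motor, and both can extend ubiquitin chains on PCNA, the sliding clamp of replication. ZRANB3 and SMARCAL1 lack a RING finger and, like HLTF, can turn a stalled replication fork back on itself. ZRANB3 is drawn to ubiquitinated PCNA and SMARCAL1 to the single-strand binding protein RPA. CHD7 is a chromodomain remodeler that slides nucleosomes and is mutated in CHARGE syndrome. It shares the motor and is not known as a fork remodeler. H3K9me3 is a mark of constitutive heterochromatin and silenced repeats.

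No peak was called at the start of any of the 5 genes. Counted from the RefSeq gene start (assembly GRCh38.p14, used as hg38), the nearest peak to ZRANB3 lay 5.63 kb away in KO and 7.21 kb away in WT. For SMARCAL1 it lay 12.6 kb away in KO and 158 kb away in WT. The distances were 18.4 kb in both lists for CHD7, 25.2 kb in KO and 25.7 kb in WT for SHPRH, and 60.9 kb in KO and 60.7 kb in WT for HLTF. All lay outside the window of 3 kb around a gene start. In the RefSeq promoter table, a KO peak within 3 kb of the gene start was found at 4.31% and a WT peak at 2.66% of 22198 promoters of 15842 protein-coding genes. A KO peak met the promoter itself, from 250 bases before to 50 after the start, at 0.329% of them, and a WT peak at 0.0901%. The absence of a peak at these starts is thus the common state of promoters in both lists.

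The 250 bases before the starts of HLTF, SHPRH, ZRANB3 and SMARCAL1 are shown because they are the promoters of these genes, without a called peak in either list, taken from RefSeq (GRCh38.p14), 5′ to 3′ along the gene, with each CG dinucleotide in capitals.
HLTF (chr3:149086534-149086783, minus strand): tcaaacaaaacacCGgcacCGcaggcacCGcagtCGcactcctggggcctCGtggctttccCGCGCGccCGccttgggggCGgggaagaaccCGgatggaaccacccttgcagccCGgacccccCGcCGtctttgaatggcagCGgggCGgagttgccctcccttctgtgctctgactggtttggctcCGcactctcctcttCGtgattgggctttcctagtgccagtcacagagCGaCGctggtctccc
SHPRH (chr6:145964359-145964608, minus strand): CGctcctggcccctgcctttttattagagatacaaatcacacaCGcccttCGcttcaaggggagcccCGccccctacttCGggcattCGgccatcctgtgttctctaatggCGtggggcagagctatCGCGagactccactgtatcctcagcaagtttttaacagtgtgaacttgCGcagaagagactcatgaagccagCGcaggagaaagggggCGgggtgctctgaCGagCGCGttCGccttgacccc
ZRANB3 (chr2:135531219-135531468, minus strand): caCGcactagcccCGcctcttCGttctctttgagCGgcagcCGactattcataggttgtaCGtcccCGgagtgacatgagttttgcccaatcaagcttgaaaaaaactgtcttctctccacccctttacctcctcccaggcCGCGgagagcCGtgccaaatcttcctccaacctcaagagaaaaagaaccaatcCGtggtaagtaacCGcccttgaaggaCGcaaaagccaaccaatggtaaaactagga
SMARCAL1 (chr2:216412234-216412483, plus strand): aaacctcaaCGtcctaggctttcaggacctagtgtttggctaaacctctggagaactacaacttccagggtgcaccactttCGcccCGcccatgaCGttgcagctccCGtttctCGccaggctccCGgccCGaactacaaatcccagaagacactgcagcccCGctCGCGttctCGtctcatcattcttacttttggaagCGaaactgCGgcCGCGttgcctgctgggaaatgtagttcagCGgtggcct
These stretches held 20 CG in HLTF, 16 in SHPRH, 13 in ZRANB3 and 17 in SMARCAL1, around the median of 16 over all 22198 promoters. At least as many CG as in HLTF were found in 41.5% of promoters, and at least as many as in ZRANB3 in 59.2%. Promoters that met a KO peak had a median of 5 CG (73 promoters), and the others a median of 16. For WT peaks the medians were 3 (20 promoters) and 16. The letters GGGCGG, read on either strand, occurred in each of the 4 stretches and in 53.7% of all promoters. CCAAT, read on either strand, occurred in HLTF and ZRANB3 and in 32.7% of all promoters. Such matches describe the letters and are not binding sites. CHD7 is not shown because the RefSeq promoter set used here has no entry for it.

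Of the 5 genes, 4 were named at a KO peak and 3 at a WT peak. Over all 20033 protein-coding genes with RefSeq coordinates the shares were 23.4% in KO and 20.6% in WT. Long genes meet a peak more often, and all 5 are longer than the median of 24.1 kb. Among genes of 50 to 100 kb, where HLTF (56.5 kb) and SMARCAL1 (70.6 kb) stand, 38.2% met a KO peak and 33.5% a WT peak. Among genes of 100 to 200 kb, where SHPRH (107 kb) and CHD7 (189 kb) stand, the shares were 63.2% in KO and 56.8% in WT. Among genes of 200 to 400 kb, the class of ZRANB3 (334 kb), they were 82.5% in KO and 77.6% in WT. The presence or absence of a peak at each member was therefore the state of a large part of the genes of its length.

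The members together held 21032 bases of KO peaks and 11185 bases of WT peaks, a ratio of 1.88. ZRANB3 made up most of both sums. Without it, an alternative chosen after seeing the data, 4 KO peaks covered 4425 bases and 3 WT peaks covered 3044 bases, a ratio of 1.45, close to the 1.49 of all protein-coding genes. By gene, ZRANB3, SHPRH and SMARCAL1 had more bases in KO, CHD7 had fewer and HLTF had none in either list. Among protein-coding genes with a peak in either list, 77.6% had more bases in KO and 22.3% had fewer.

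**Figure D1:**
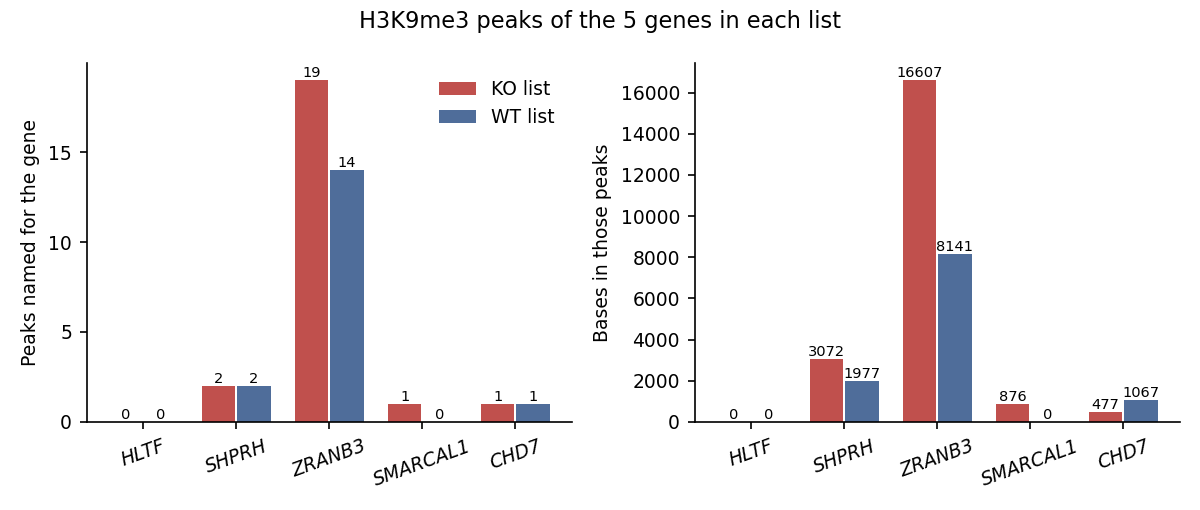
Number of H3K9me3 peaks named for each gene (left) and bases in those peaks (right), KO bars beside WT bars; each bar is 1 list without replicates. ZRANB3 stands above the other 4 genes in both lists, and HLTF is at 0 in both.

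HLTF, the targeted gene, was free of called peaks over its whole body (chr3:149030063-149086533, hg38, minus strand, 56.5 kb) in KO and in WT. The nearest peak lay beyond its 3′ end, 4441 bp away in KO and 4202 bp away in WT, inside GYG1. GYG1 encodes glycogenin, the protein primer of glycogen synthesis, and its RefSeq body overlaps that of HLTF by 1713 bp. The KO peak (chr3:149024945-149025622) was 678 bp wide with a fold of 5.03 and a q-value of 1.05e-15. The WT peak (chr3:149024763-149025861) was 1099 bp wide with a fold of 6.45 and a q-value of 1.00e-18. The KO peak lay within the WT peak, and here KO had the narrower and lower one. A further KO peak of 272 bp and fold 3.36 lay beside it. Among the 15054 protein-coding genes with no peak in their body in either list, 4.92% had a KO peak and 3.16% a WT peak at least this near.

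Within 500 kb beyond the 5′ end of HLTF the mark was sparse. The next KO peak began 365 kb away (fold 2.79, 344 bp wide) and the next WT peak 303 kb away (fold 3.93, 309 bp wide), both outside genes. The gene thus sat at the edge of a stretch without called peaks in both lists. Within 500 kb on this side there was 1 KO peak of 344 bases, against 3 WT peaks over 1775 bases. Within 500 kb on the 3′ side there were 12 KO peaks over 5476 bases, against 5 WT peaks over 3688 bases. The KO to WT ratio on that side was 2.4 in peaks and 1.48 in bases, where the whole series had 1.39 and 1.59. The 2 sides went opposite ways relative to WT, and the same held over 2 Mb. There the 5′ side had 28 KO peaks against 47 WT peaks, a ratio of 0.596, and the 3′ side had 37 KO peaks against 19 WT peaks, a ratio of 1.95. In bases these ratios were 0.560 and 1.87. Over this distance the WT list thus had more peaks on the 5′ side than on the 3′ side. With the stricter lists, an alternative for each side chosen after seeing the data, the directions over 2 Mb stayed. Keeping peaks of at least the pooled median fold (3.69) left 11 KO and 25 WT peaks on the 5′ side and 19 KO and 6 WT peaks on the 3′ side. Keeping peaks at or below the pooled median q left 15 KO and 19 WT peaks on the 5′ side and 19 KO and 4 WT peaks on the 3′ side. This cut admits weaker KO than WT peaks, since the q-value at a like fold could be lower in KO, as at CHD7. With as many KO peaks as the WT list holds there were 20 KO and 47 WT peaks on the 5′ side and 22 KO and 19 WT peaks on the 3′ side, although within 500 kb the 3′ side then had 3579 KO and 3688 WT bases. The sum of both sides over 2 Mb had no steady direction. The difference in bases was -3130 with all peaks, 5045 with the fold threshold, 5985 with the q threshold and -14174 with lists of equal length.

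With all peaks, none of the other 4 genes had fewer KO than WT peaks on its 5′ side over 2 Mb, but CHD7 had 22 in KO and 25 in WT with the fold threshold. Ratios of KO to WT peaks there were 1.63 for SHPRH, 2.22 for ZRANB3, 2.25 for SMARCAL1 and 1.49 for CHD7. On the 3′ side they were 1.45 for SHPRH, 1.24 for ZRANB3, 1.91 for SMARCAL1 and 0.913 for CHD7. CHD7 had 21 KO and 23 WT peaks on that side but 16053 KO and 15070 WT bases. Within 500 kb on the 5′ side, ZRANB3 had 5 KO peaks over 6962 bases and 6 WT peaks over 5848 bases. SMARCAL1 had 0 KO and 2 WT peaks within 500 kb on its 5′ side with the fold threshold. How many of all genes have fewer KO peaks on 1 side was not counted.

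**Figure D2:**
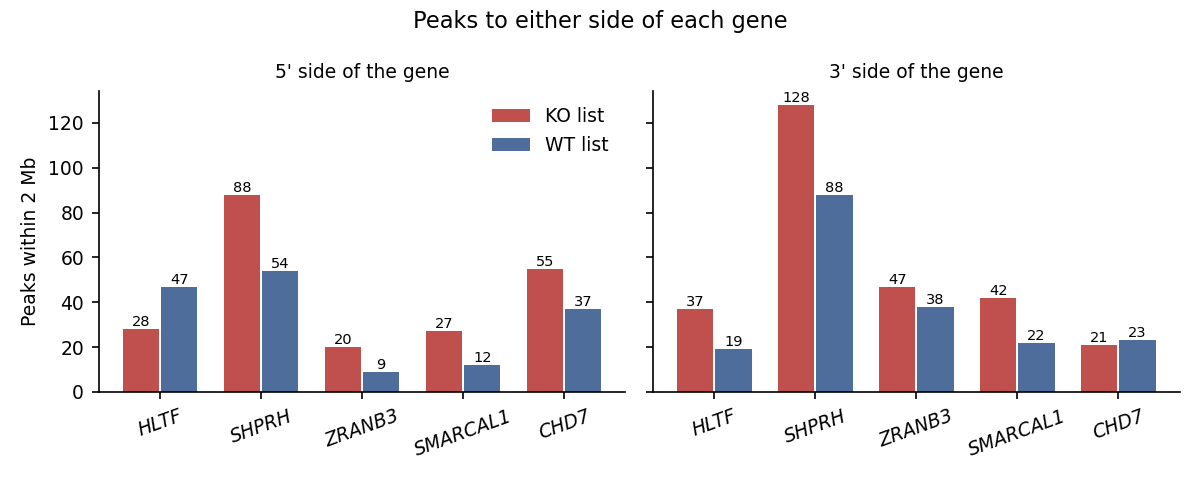
Peaks within 2 Mb on the 5′ side (left) and the 3′ side (right) of each gene, KO bars beside WT bars; each bar is a count in 1 list. On the 5′ side of HLTF the KO count of 28 is below the WT count of 47, and on its 3′ side 37 is above 19.

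SHPRH, the other RING-bearing relative of Rad5 (chr6:145857838-145964358, minus strand), carried the strongest peak of the members. In KO it had a fold of 8.92, a q-value of 1.31e-44 and a width of 2690 bp (chr6:145897093-145899782). Its fold was above that of 99.8% of all KO peaks. In WT the peak at the same place had a fold of 7.08, a q-value of 6.04e-23 and a width of 1651 bp (chr6:145897227-145898877). Its fold was above that of 99.2% of all WT peaks. The mark at this site, about 66 kb inside the gene, was thus among the highest in both genotypes. A second WT peak of 326 bp and fold 2.97 lay just beyond it, and the KO peak spanned both WT peaks in full.

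The other KO peak named for SHPRH was 382 bp wide with a fold of 3.90, and the nearest WT peak was 10.9 kb away. SHPRH had 2 peaks in each list, over 3072 bases in KO and 1977 bases in WT, a ratio of 1.55. All 1977 WT bases lay inside KO peaks. The count by name leaves out the 3′ end of the gene, where the authors assigned peaks to AL356599.1, a transcript on the opposite strand. One KO peak there had a fold of 6.14 and 1614 bp, and the 2 WT peaks it met had folds of 5.43 and 4.16 and widths of 1328 and 335 bp. ChIP fragments carry no strand, so a peak in the overlap belongs to neither gene more than to the other. Counted by overlap with the gene body, SHPRH had 4 peaks in each list, over 5014 bases in KO and 3640 bases in WT, a ratio of 1.38. Outside the gene, 58 KO peaks over 57263 bases and 41 WT peaks over 28364 bases lay within 500 kb. Their ratio of bases was 2.02, above that at the gene.

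ZRANB3 (chr2:135196969-135531218, minus strand) had the most peaks of the members, in number and per 100 kb. By share of the RefSeq body under peaks it was above SHPRH in KO (5.94% against 4.71%) and below it in WT (2.86% against 3.42%). The authors named it at 19 KO peaks over 16607 bases, against 14 WT peaks over 8141 bases, a ratio of 2.04 in bases. Of all protein-coding genes, 0.769% had 19 or more KO peaks and 0.904% had 14 or more WT peaks. Per 100 kb of gene this came to 5.68 peaks in KO and 4.19 in WT, where the medians over genes with a peak were 2.77 in KO and 2.43 in WT. These counts depend on how neighbouring peaks are split. With peaks within 1 kb merged, ZRANB3 had 9 in KO and 8 in WT, and the shares and densities were not recomputed. The folds of its peaks were moderate. They ran from 2.48 to 5.91 with a median of 3.74 in KO, and from 2.40 to 4.64 with a median of 4.07 in WT. The medians of the whole lists were 3.59 in KO and 3.77 in WT.

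The peaks of ZRANB3 were concentrated behind its start. Stretches of the gene were set after seeing the positions, counting every peak in the body. From 5 to 25 kb from the start there were 12 KO peaks over 12123 bases, 60.6% of the stretch, against 11 WT peaks over 6393 bases, 32.0%. The first 5 kb had no peak in either list. From 25 to 50 kb there were 3 KO peaks and 1 WT peak, and from 50 to 110 kb there were 4 in each list, over 3787 bases in KO and 2088 bases in WT. The remaining and longest part of the gene held 3 KO peaks over 1609 bases and 1 WT peak over 351 bases. Of the peaks between 5 and 25 kb, 4 in each list were assigned by the authors to AC064850.1, a transcript inside the gene on the same strand.

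In that dense stretch 7 of the 12 KO peaks met a WT peak and 5 did not. At 6 of the 7 the KO peak was wider than the summed width of the WT peaks it met, and at the other it was narrower, with 339 bp in KO and 357 bp in WT. All 11 WT peaks there met a KO peak, and 6072 of their 6393 bases lay inside KO peaks. The widest KO peak (chr2:135514535-135517339) spanned 2805 bp with a fold of 5.91 and met 4 WT peaks. The WT peaks it met had folds of 4.46, 4.16, 3.77 and 3.81 and widths of 878, 871, 339 and 438 bp. A KO peak of 1996 bp (chr2:135518115-135520110) met 2 WT peaks of 651 and 832 bp, but its fold of 2.48 was below their folds of 3.98 and 4.44. Only 4.81% of all KO peaks had a lower fold than this one, while its q-value was 1.72e-08. Width and fold thus did not go together at every peak.

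Beyond 110 kb from the start the lists had no place in common. At 77 kb, still among the shared places, a KO peak of 1505 bp and fold 5.21 met 2 WT peaks of folds 4.32 and 4.64. Further in, KO had peaks at 198, 201 and 225 kb with folds of 3.90, 2.97 and 4.28, and WT had 1 at 182 kb with a fold of 3.85. None of these 4 met a peak of the other list. Past the 3′ end of the RefSeq body lay a KO peak of fold 3.43 and a WT peak of fold 4.56, named for ZRANB3 through a transcript that reaches further, with a gap of 34 bp between them. Outside the RefSeq body, 25 KO peaks over 23255 bases and 23 WT peaks over 15694 bases lay within 500 kb, a ratio of bases of 1.48.

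**Figure D3:**
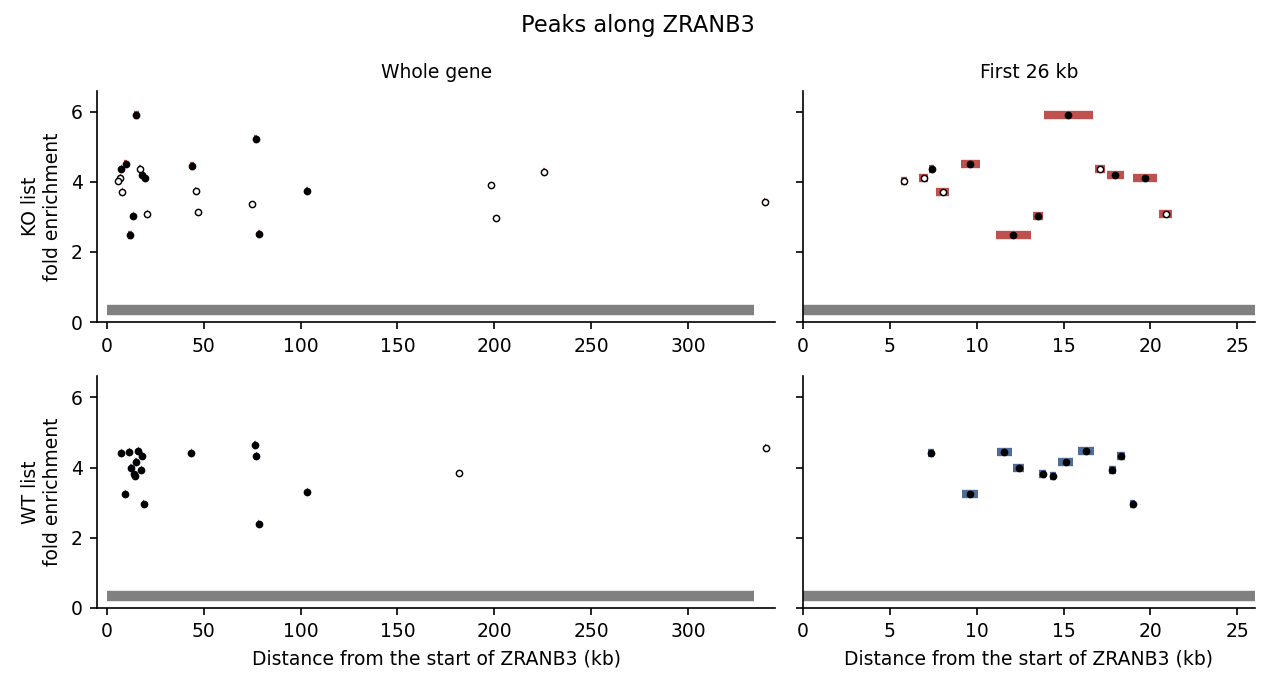
Peaks at ZRANB3 by distance from its start (kb) and fold enrichment, KO above WT, for the whole gene (left) and its first 26 kb (right). Coloured bars give peak width, filled points meet a peak of the other list, open points do not, and the grey bar is the gene body; between 5 and 25 kb KO has 12 bars over 12123 bases and WT has 11 over 6393.

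Of the 3 protein-coding genes nearest to ZRANB3 in peak bases over the 2 lists, by Euclidean distance on log2(bases + 1), the first was PCDH15, a cadherin gene of inner ear hair cells, at a distance of 0.018. It had 16514 bases in KO and 8048 bases in WT. ZNF566, a zinc finger gene on chromosome 19, followed at 0.021 with 16406 bases in KO and 8077 bases in WT, and MIPOL1 on chromosome 14 at 0.022 with 16407 bases in KO and 8062 bases in WT. The genes differ in length, from 44.4 kb for ZNF566 to 1825 kb for PCDH15, so like sums stand for unlike densities.

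SMARCAL1 (chr2:216412484-216483053, plus strand), mutated in Schimke immuno-osseous dysplasia, had 1 KO peak and no WT peak. The KO peak (chr2:216425084-216425959) was 876 bp wide and lay about 13 kb inside the gene. The authors classed it as a promoter peak because a shorter transcript starts nearby. Its fold of 1.98 was among the lowest of the list, with 0.342% of KO peaks below it, and its q-value was 1.92e-04. The nearest WT peak was 145 kb away. Over all protein-coding genes, 4.04% had a peak in KO alone and 1.25% in WT alone. The peak passed none of 3 stricter cuts, which kept peaks of at least the pooled median fold, those at or below the pooled median q, or as many KO peaks as the WT list holds. Outside the gene, 10 KO peaks over 6193 bases and 6 WT peaks over 3037 bases lay within 500 kb, a ratio of bases of 2.04.

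CHD7 (chr8:60678740-60868028, plus strand) had 1 peak in each list at the same place, 135 kb from its start and in the authors' gene-body class. The KO peak (chr8:60813160-60813636) was 477 bp wide with a fold of 4.28. The WT peak (chr8:60812894-60813960) was 1067 bp wide with a fold of 4.24 and contained the KO peak. CHD7 was the only one of the 5 genes with fewer bases in KO, a difference of -590. Of protein-coding genes with a peak in both lists, 22% had fewer. Within 500 kb outside the gene KO had more, with 25 KO peaks over 19264 bases and 17 WT peaks over 11532 bases. The surplus of peaks was on the 5′ side, with 19 in KO and 9 in WT. The 3′ side had 6 KO peaks over 6408 bases and 8 WT peaks over 5806 bases. With the fold threshold, 10 KO and 10 WT peaks lay within 500 kb outside the gene.

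**Figure D4:**
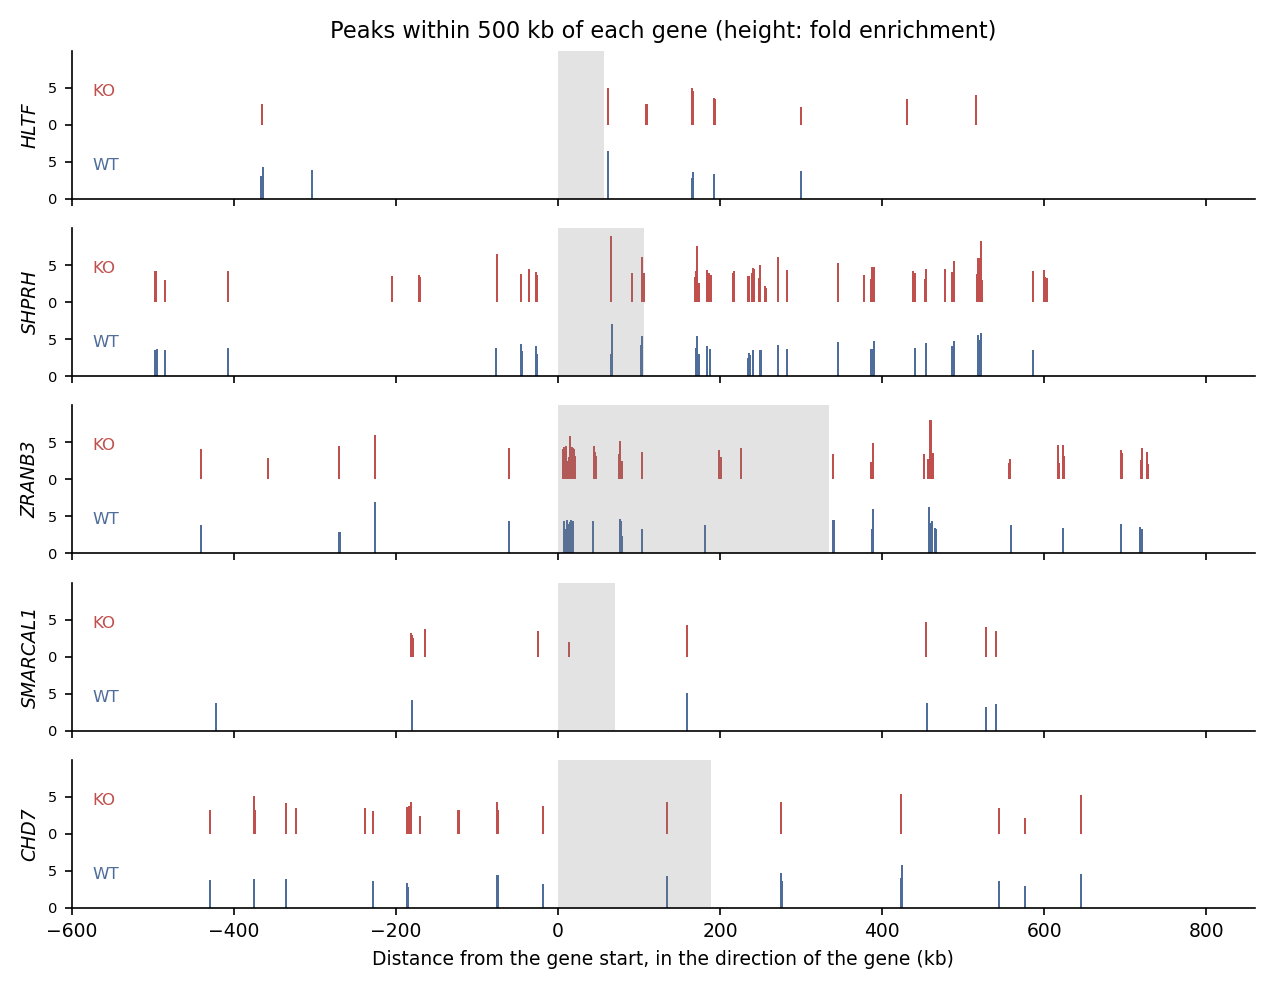
Peaks within 500 kb of each gene by distance from its start (kb), KO track above WT track, with bar height as fold enrichment and the gene body shaded; peaks narrower than 2.5 kb are drawn at that width. HLTF lies next to a peak-free stretch on its 5′ side, and ZRANB3 holds a cluster of peaks behind its start.

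In all, 11 of the 23 KO peaks met a WT peak, where 50.5% of all KO peaks did, and 15 of the 17 WT peaks met a KO peak, where 80.1% of all WT peaks did. By this overlap of at least 1 bp, the members were thus near the list-wide shares. Of the 12 KO peaks without a WT partner, 10 were at ZRANB3, and 3 of those lay within 1 kb of a WT peak. In bases, 84.9% of the WT peaks and 45.1% of the KO peaks at the members were common to both lists. With 50% of both peaks required, 4 of the 23 KO and 4 of the 17 WT peaks were shared. These were smaller shares than the 29.0% of all KO and 40.3% of all WT peaks.

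The wider SNF2 family was taken as a list of 32 genes, chosen with earlier results of these data known. Of these, 14 had a KO peak and 11 a WT peak, 43.8% and 34.4%, against 23.4% and 20.6% of all protein-coding genes. The median length of the listed genes was 102 kb, against 24.1 kb over all protein-coding genes, and the part of length in these shares was not tested. More bases in KO were found at 11 and fewer at 3, where 19.1% of all protein-coding genes had more and 5.51% had fewer, and the median difference was 0 over the list and over all genes. Among genes with a peak in either list 77.6% had more bases in KO, so 11 of 14 is near that share. The direction depended on the stricter list used. It held by the q threshold, a cut that admits weaker KO peaks, with 7 genes having more and 3 fewer. It did not hold by the fold threshold, with 4 having more and 6 fewer. In lists of equal length 6 had more and 6 fewer. CHD6, a chromodomain remodeler, had 12 KO peaks over 14386 bases and 7 WT peaks over 8099 bases. ERCC6L2, a repair-linked member, had 7 KO peaks over 3960 bases and 3 WT peaks over 2645 bases. The 3 with fewer bases in KO, named after their values were seen, were CHD2, CHD7 and ERCC6L. The core SWI/SNF motors SMARCA2 and SMARCA4, also named after the values were seen, had no peak in either list.

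**Figure D5:**
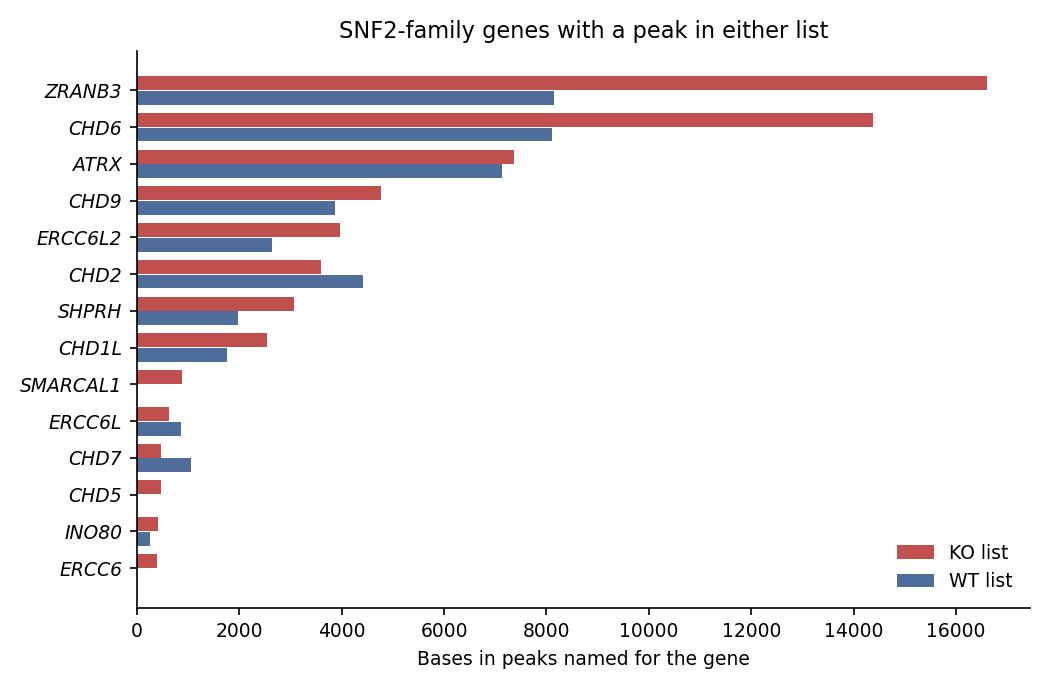
Bases in peaks named for each SNF2-family gene with a peak in either list, KO bar above WT bar, 1 list per bar. ZRANB3 and CHD6 have the longest bars in both lists, and CHD2, CHD7 and ERCC6L have the longer bar in WT.

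Genes that act with HLTF and SHPRH in damage tolerance, where PCNA ubiquitination lets replication pass lesions, were marked about as often as genes in general. Of 18, 4 had a KO peak and the same number had a WT peak, 22.2% in each list, against 23.4% in KO and 20.6% in WT over all protein-coding genes. Longer genes meet a peak more often, and the median length of these 18 was 44.5 kb, against 24.1 kb over all. The part of length in these shares was not tested. RAD18, the ligase that places the first ubiquitin on PCNA, had 2 KO peaks over 2258 bases and 1 WT peak over 1376 bases. POLK, a translesion polymerase, had 5 KO peaks over 2639 bases and 1 WT peak over 2020 bases. REV1, a translesion polymerase scaffold, had 619 bases in KO and 1580 bases in WT. REV3L, the catalytic subunit of polymerase zeta, had 4421 bases in KO and 4740 bases in WT, and its highest fold was 5.68 in KO and 8.66 in WT. PCNA, UBE2N and UBE2V2, the clamp and the conjugating enzyme pair used by HLTF and SHPRH, named after their values were seen, had no peak in either list.

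Among 24 genes of fork remodelling and protection, 4 had a KO peak and the same number had a WT peak, 16.7% in each list, beside the 23.4% in KO and 20.6% in WT of all protein-coding genes. Their median length was 58.7 kb, against 24.1 kb over all protein-coding genes. BRCA2, which acts in homologous recombination and protects stalled forks, had 5 KO peaks over 7949 bases and 3 WT peaks over 4904 bases. ATR, the kinase of replication stress, had 2370 bases in KO and 1922 bases in WT, and the helicase gene BLM had 1234 bases in KO and 998 bases in WT. The helicase gene WRN had 431 bases in KO and 717 bases in WT. Of 23 SWI/SNF subunit genes beyond the motors, 4 had a peak in KO and 4 in WT, 17.4% in each list, beside the same shares of all genes. These were ARID1B (4223 bases in KO, 3057 in WT), DPF3 (6871 in KO, 6230 in WT), ARID2 (3056 in KO, 3500 in WT) and SMARCC1 (743 in KO, 422 in WT). The median length of the 23 subunit genes was 38.4 kb. The part of length in the shares of the fork and subunit lists was not tested. In these 3 lists every gene with a peak had one in both genotypes, as did 3883 of the 4943 protein-coding genes with a peak in either list.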

How the data were processed

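H3K9me3 ChIP-seq was made from 293T cells in 2 genotypes, with 3 ChIP and 3 input libraries each per the labels. HISAT2 and hg38 are named in the submitters' processing notes. Neither the peak caller nor the use of inputs nor the pooling of replicates is given in the sources used here. The deposited lists give per peak a fold enrichment, read as a ratio of ChIP over background, and a q-value, both by the authors. Depth per library is unknown.

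Positions were read as counted from 1. Peaks were assigned by the authors' gene column, and peaks of the 2 lists were called shared when they met by at least 1 bp. RefSeq (GRCh38.p14) gave bodies and starts, and 98.2% of 5037 protein-coding names in the lists were matched to it. Distances run from the gene's end or start to the nearest base of a peak. Code ran in Python 3.11.15 with pandas 2.3.3 and numpy 2.4.6, and interval functions were tested on simulated peaks. With 1 list per genotype no test between genotypes was possible.

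Alternatives were gene-body assignment, thresholds on fold and q, lists of equal length, other overlaps and flanks. The members and gene lists were chosen with earlier results of these data known. Named genes were the members, their neighbours, up to 4 per gene list by difference in bases, and the 3 nearest to ZRANB3; 1 neighbour is not reported here.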

Additional observations from a re-analysis of the deposited data

How the results depend on the processing

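No paired analysis was possible because the lists hold no value per library, and leaving out a library was not run for the same reason. Of 131 recomputed values, 82 stayed within 1.5 times the reported one, 46 moved by more and 3 changed sign. The 82 include values of 0 that stayed at 0, so the tally overstates how stable the results were. Among these were the bases at HLTF, which a stricter cut could not change, and distances to peaks inside a gene. Differences are KO minus WT, in bases unless named as peaks or genes, and the cause of each change was not tested. Differences around a gene within a given distance include the peaks in the gene body.

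With peaks of at least the pooled median fold, the difference was 4935 at ZRANB3, 0 at SMARCAL1 and 5766 over the 5 genes together, with 2 more peaks in KO. Within 500 kb it was 11033 around ZRANB3, 1011 around SMARCAL1 and 1235 around CHD7. Of the SNF2 family, 4 genes then had more bases in KO and 6 had fewer. In the lists of fork and of SWI/SNF subunit genes 2 had fewer in each. With peaks at or below the pooled median q, a cut that admits weaker KO peaks, SMARCAL1 was at 0, HLTF within 500 kb at 1350 and SMARCAL1 within 500 kb at 1711. More bases in KO were found at 7 SNF2 genes and fewer at 3, and 0 genes of the fork and subunit lists had fewer. With a KO list of 46898 peaks, SMARCAL1 was at 0 and the 5 genes had 1 more peak in KO. Within 500 kb the difference was -1540 around HLTF, 10914 around ZRANB3, 1352 around SMARCAL1 and 2204 around CHD7. Of the SNF2 family 6 genes had more and 6 had fewer, 1 damage tolerance gene had more and 2 subunit genes had fewer.

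Without ZRANB3, chosen after seeing the data, the difference over the other 4 genes was 1381, and with peaks within 1 kb merged the difference in peaks was 3. With 50% of both peaks required, 4 of 23 KO and 4 of 17 WT member peaks were shared. These shares were below the 29.0% and 40.3% of all KO and WT peaks. By gene body 1 damage tolerance gene had more bases in KO. Within 500 kb, with all peaks, the difference was 357 around HLTF, 30273 around SHPRH, 17833 around ZRANB3, 4032 around SMARCAL1 and 7142 around CHD7. Within 100 kb the difference was 11445 around SHPRH, 9798 around ZRANB3, 1038 around SMARCAL1 and -486 around CHD7, gene bodies included. Outside the gene body the order within 100 kb was reversed for ZRANB3, with 2757 KO and 3231 WT bases. For CHD7 it was reversed as well, with 3330 KO and 3226 WT bases. Within 2 Mb it was -3130 around HLTF, 99606 around SHPRH, 33694 around ZRANB3, 24450 around SMARCAL1 and 14602 around CHD7. Over 2 Mb on the 5′ side of HLTF it was -15146 with all peaks, -7404 by fold and -7663 by q, and on the 3′ side 12016 with all peaks and 4344 with lists of equal length. At SHPRH and CHD7 the difference within the gene kept its sign and stayed within 1.5 times under every alternative run. The distance from HLTF to its nearest peak was the same in all. Depth per library is unknown, so what a missing peak allows cannot be given.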

Other observations

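Protein-coding neighbours of the 5 genes did not all follow the member beside them. GYG1, which overlaps the 3′ end of HLTF, had 950 bases in 2 KO peaks and 1099 bases in 1 WT peak, and HPS3, on the 5′ side of HLTF, had no peak in either list. FBXO30 on the 3′ side of SHPRH was named at 1 KO peak of 365 bases and at no WT peak, while 3 KO peaks and 1 WT peak met its RefSeq body. R3HDM1, which begins just beyond the start of ZRANB3, had 1 peak in each list, of 899 bases in KO and 1107 bases in WT. These peaks lay on the 5′ side of ZRANB3, 60.2 kb from its start in KO and 59.8 kb in WT. RAB3GAP1 on the other side had 7 KO peaks over 6619 bases and 9 WT peaks over 5767 bases, with highest folds of 8.00 in KO and 6.27 in WT. MARCHF4 beside SMARCAL1 had no peak in either list, and RPL37A on the other side was named at 1 peak in each, of 776 bases in KO and 930 bases in WT. No peak of either list met the RefSeq body of RPL37A. RAB2A beside CHD7 had 2085 bases in KO and 1689 bases in WT, and CLVS1 on the other side had 5573 bases in KO and 4893 bases in WT.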
